A study of Mus musculus with 6 samples.

Results

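The interleukin 6 (Il6) family signals through a small set of proteins, and 8 of its genes were followed here across the cells of the mouse colon: the cytokines Il6 and Lif, the receptors Il6ra, Osmr, Lifr and Il6st, the transcription factor Stat3 and its feedback inhibitor Socs3. They were chosen by gene symbol, and all 8 were found among the 31053 genes counted in each library. Nuclei were sorted from the colon of wild-type C57BL/6J mice by a stain for DNA and by INTACT, a tag on the nucleus, and their RNA was counted by droplet sequencing. The 2 Control libraries came from mice given a control treatment, the 3 Stress libraries from mice restrained every day for 7 days, and the 1 Dexa library from mice given injections of dexamethasone, a synthetic glucocorticoid, for 7 days. The series asks how the enteric nervous system, the neurons and glia of the gut wall, passes psychological stress on to intestinal inflammation. The labels name neither the driver of the nuclear tag nor the dose of dexamethasone nor the number of animals behind a library. Nothing in them tells whether replicate libraries hold different mice, and p-values therefore cover only library-to-library spread, which may be technical. The Dexa library has no replicate and is assumed to vary like the others, and it is also the only library counted with the later Cell Ranger version, so that treatment and software version cannot be told apart.

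Cytokines of the Il6 family share a signalling chain, Il6st (gp130), which pairs with a receptor chain that recognises the ligand: Il6ra for Il6, Lifr for Lif, and Osmr for oncostatin M. The paired receptor activates JAK kinases, which phosphorylate Stat3, and Stat3 then enters the nucleus and switches on genes that include Socs3, whose product binds the receptor and stops the signal. Il6 can also reach cells that lack Il6ra when the receptor is shed in soluble form. Transcription of Il6 itself is known to be driven by NF-kB and AP-1 factors and to be repressed by glucocorticoids in many cells.

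On the mouse build GRCm38 (mm10), Il6 lies at chr5:30013114-30019981 on the plus strand, Lif at chr11:4257557-4272514 on the plus strand, Il6ra at chr3:89864059-89913196 on the minus strand and Osmr at chr15:6813577-6874969 on the minus strand. Lifr lies at chr15:7090614-7197489 and Il6st at chr13:112464070-112510086, both on the plus strand, while Stat3 at chr11:100885098-100939540 and Socs3 at chr11:117966079-117970047 are on the minus strand. The promoters of all 8 were found in RefSeq's annotation of GRCm38.p6, with 9 start sites between them. They are shown for the cytokine Il6, known to be driven by NF-kB, and for the feedback gene Socs3, known to be switched on by Stat3. The letters GGGNNTTTC (an NF-kB motif, N standing for any base) and TTCNNNGAA (a STAT motif) were searched on both strands in the 250 bases before each start. The NF-kB letters were found in 3.723% of all 32851 promoters and, among the 8 genes, in Il6, where they cover 44 to 36 bases before the start. The STAT letters were found in 7.02% of all promoters and, among the 8, in Socs3, where they cover 154 to 146 bases before the start. Capitals mark the match, and both stretches read 5′ to 3′ on the strand of the gene, at chr5:30013010-30013112 (plus strand) for Il6 and at chr11:117969462-117969570 (minus strand) for Socs3. The AP-1 letters TGANTCA were in Il6 and in Lif and in 6.749% of all promoters, the CRE letters TGACGTCA were in none of the 8 and in 1.546% of all, and none of these matches shares a base with another. A match describes the letters only.
Il6: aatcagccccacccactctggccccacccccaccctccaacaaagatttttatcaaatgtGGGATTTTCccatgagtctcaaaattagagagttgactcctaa
Socs3: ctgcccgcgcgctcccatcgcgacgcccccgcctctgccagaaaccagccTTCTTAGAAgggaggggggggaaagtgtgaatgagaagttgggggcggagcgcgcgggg

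Of 11040 barcodes, 3417 nuclei passed the filters, and libraries kept between 14.8% and 52.6% of their barcodes. Nuclei were deepest in the Dexa library, with a median of 3810 UMIs (unique molecular identifiers, counts of distinct transcripts), and shallowest in Stress 1, with 1625. The median mitochondrial share over all barcodes ran from 4.44% in Stress 3 to 19.8% in Control 2. Clustering gave 9 named classes, each called "-like" after its marker genes. Glia-like nuclei (884) and neuron-like nuclei (406) are the cell types of the enteric nervous system, whose nuclei the series set out to isolate, while fibroblast-like (205), smooth muscle-like (306), lymphatic endothelium-like (156), cycling (355) and epithelium-like (436) nuclei were also present. The cycling class, 1 cluster led by Cftr and Kcnq1 with Top2a and Cenpf, held 14 of 14 epithelial markers at 5009 to 6525 CPM in each library, against 538 to 2425 CPM of cycling markers. Between 15.6% and 23.6% of the nuclei of a library stayed unnamed. Glia-like nuclei detected 12 to 15 of 15 glial markers in each library and fibroblast-like nuclei 12 of 12 of theirs. Among kept nuclei 3 barcode sequences occurred in more than 1 library.

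Il6 transcripts lay mostly in glia-like and fibroblast-like nuclei. Of its 146 UMIs over all kept nuclei, 112 (76.7%) were in glia-like nuclei and 20 (13.7%) in fibroblast-like nuclei, but 88 of the 146 came from the Dexa library, 81 of them from its glia. Glia held the larger share in Control 2 (1 of 1 UMI), Stress 2 (8 of 11), Stress 3 (15 of 19) and Dexa (81 of 88), and fibroblasts in Control 1 (9 of 12, against 3 in glia) and Stress 1 (8 of 15, against 4 in glia). A UMI of Il6 was seen in 35 of 884 glia-like nuclei (3.96%, exact binomial 95% interval 2.77 to 5.46%, median depth 3221 UMIs) and in 8 of 205 fibroblast-like nuclei (3.90%). In epithelium-like nuclei, which serve as a background for free RNA, the share was 1 of 436 (0.229%, median depth 2366 UMIs). Only 3 of the 436 came from the Dexa library, so they give almost no background for that library. After every nucleus was thinned to 1000 UMIs, which left out 75 shallower glia-like nuclei, the glial share was 1.61% and the epithelial share 0. These intervals cover counting error only. In CPM (counts per 1000000 UMIs of the class), the mean over the 6 libraries was 52.0 ± 71.3 (SD) in fibroblast-like and 29.1 ± 44.5 in glia-like nuclei, and it was 6.10 ± 9.50 in lymphatic, 3.09 ± 4.94 in smooth muscle-like and 0.640 ± 1.01 in neuron-like nuclei. Cycling nuclei held 0 UMIs of Il6. The ranges of all neighbours in this order overlapped, and fibroblasts were above glia in 2 of 6 libraries. The high fibroblast mean came from Control 1, with 9 UMIs in 2 nuclei, and Stress 1, with 8 UMIs in 3 nuclei. In that Control 1 class the markers of B and plasma cells reached 3935 CPM against at most 92.1 CPM in the other libraries, and their part in the Il6 count was not tested.

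Lif, the other cytokine of the set, was close to absent. It gave 9 UMIs over all kept nuclei, of which 5 lay in the cycling nuclei rich in epithelial markers and 4 in glia-like nuclei, and 3 of those 4 came from 1 nucleus of Control 2. In glia-like nuclei of the Dexa library the count was 0 in 115 nuclei, which allows a share of nuclei with a UMI of up to 2.61%. No level of Lif could therefore be compared between groups.

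**Figure D1:**
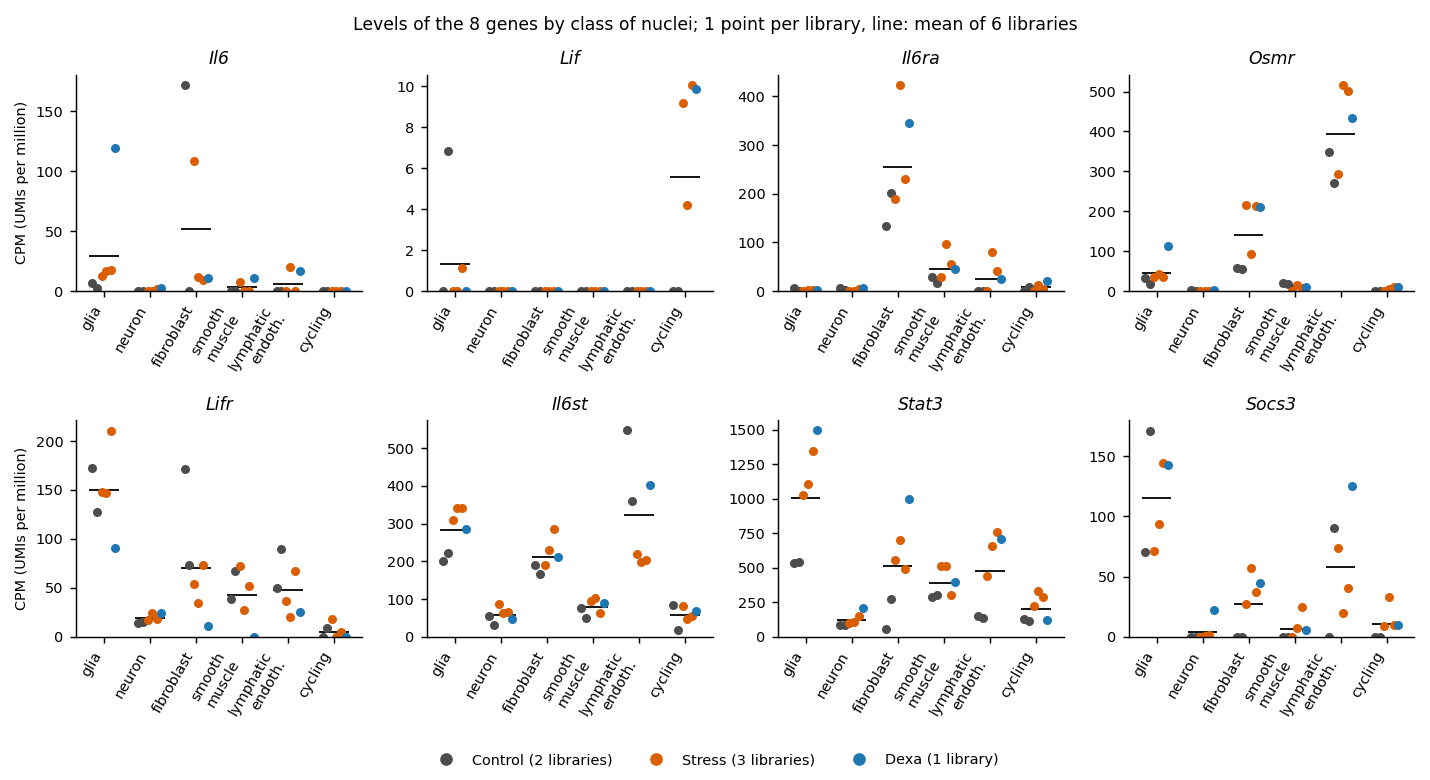
Level of each of the 8 genes, in CPM on a linear axis, in 6 classes of nuclei. Each point is 1 library, coloured by group, and the line is the mean of 6 libraries; Il6ra stands highest in fibroblast-like nuclei (mean 254 CPM), Osmr in lymphatic endothelium-like nuclei (394 CPM), and Lifr, Stat3 and Socs3 in glia-like nuclei (150, 1009 and 115 CPM).

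Among the classes tested, the receptor chain for Il6 was highest in fibroblast-like nuclei, which also held Il6, and close to 0 in glia. Il6ra in fibroblast-like nuclei stood at 134 and 202 CPM in the Control libraries, 190, 424 and 230 CPM in the Stress libraries and 345 CPM in the Dexa library, and the class was above smooth muscle (45.4 ± 28.6 CPM, SD, n = 6) in every library with no overlap. All lower neighbours overlapped, from lymphatic endothelium (24.2 ± 31.9 CPM) through cycling (7.70 ± 7.68 CPM) and neuron-like nuclei (3.14 ± 2.72 CPM) to glia (2.04 ± 2.35 CPM). Glia-like nuclei gave 7 UMIs of Il6ra in all, at 3, 0, 0, 1, 2 and 1 UMI in Control 1 and 2, Stress 1, 2 and 3 and Dexa. Its share of glia-like nuclei, 4 of 884 (0.452%), was below the 0.688% that 0 of 436 epithelium-like nuclei allow, so it cannot be told from background at this depth. The 23 enteroendocrine-like nuclei, too few to test, held 6 Il6ra UMIs among 69276 UMIs in all. A further 26.5% of the Il6ra UMIs lay in unnamed clusters. Among these, cluster 20, whose 76 nuclei were led by Dock2, Ptprc, F13a1 and other genes of immune cells, held 120 to 864 CPM of Il6ra in each library, from 2 to 7 UMIs.

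The receptor chain for oncostatin M was highest in lymphatic endothelium among the classes tested. Osmr stood at 348 and 270 CPM in Control, 293, 517 and 500 CPM in Stress and 434 CPM in Dexa in lymphatic endothelium-like nuclei, above fibroblasts in all 6 libraries with no overlap of the ranges. Fibroblast-like nuclei followed with 141 ± 80.7 CPM (SD, n = 6), then glia with 46.1 ± 33.2 CPM. Fibroblasts were above glia in each library, although the ranges overlapped. Vascular endothelium-like nuclei, too few to test with 36 nuclei, gave 22 Osmr UMIs and 108 to 940 CPM in the 5 libraries with at least 3 of these nuclei, above lymphatic nuclei in Stress 1, Stress 3 and Dexa. Smooth muscle (11.4 ± 7.02 CPM), cycling (4.02 ± 4.88 CPM) and neuron-like nuclei (1.24 ± 1.36 CPM) made up the rest of the order with overlapping ranges. Neuron-like nuclei held 5 UMIs of Osmr in all, in 4 of 406 nuclei (0.985%), against 3 of 436 epithelium-like nuclei (0.688%), at median depths of 5362 and 2366 UMIs.

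The receptor chain for Lif was highest in glia among the classes tested, but was not confined to them. Lifr was highest in glia-like nuclei (150 ± 40.4 CPM, SD, n = 6), which were above fibroblast-like nuclei (69.8 ± 55.5 CPM) in every library although the ranges overlapped. Lymphatic (48.1 ± 26.8 CPM), smooth muscle (43.1 ± 27.1 CPM), neuron-like (18.7 ± 4.56 CPM) and cycling nuclei (5.38 ± 7.31 CPM) followed, each overlapping with its neighbour. The fibroblast-like class joined cluster 13, with 127 ± 88.1 CPM of Lifr, and cluster 19, with 8.54 ± 14.5 CPM. Glia-like clusters 9, 11 and 12 held 121 ± 43.7, 180 ± 24.9 and 139 ± 64.3 CPM. The vascular endothelium-like nuclei held 42 Lifr UMIs, and the same 5 libraries gave 315 to 1984 CPM, above glia in each.

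The shared chain was broad. Il6st was found at 322 ± 140 CPM in lymphatic endothelium, 283 ± 59.95 CPM in glia and 212 ± 41.9 CPM in fibroblasts (SD, n = 6). Lymphatic nuclei were above glia in 3 of 6 libraries, so these neighbours do not differ beyond their spread, whereas fibroblasts were above smooth muscle (79.7 ± 20.2 CPM) in all 6 with no overlap. Cycling (59.0 ± 25.1 CPM) and neuron-like nuclei (57.8 ± 18.3 CPM) were lowest and overlapped. The vascular endothelium-like nuclei held 37 Il6st UMIs, at 315 to 1253 CPM in the 5 libraries.

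Nuclei in which both chains of a receptor were counted followed the same division. Il6ra and Il6st were both seen in 29 of 205 fibroblast-like nuclei (14.1%, exact binomial 95% interval 9.68 to 19.7%) and in 4 of 884 glia-like nuclei (0.452%, 0.123 to 1.154%), although glia had the greater median depth (3221 against 1937 UMIs). Lifr and Il6st met in 172 of 884 glia-like nuclei (19.5%) and in 6 of 205 fibroblast-like nuclei (2.93%). Osmr and Il6st met in 26 of 156 lymphatic nuclei (16.7%), 17 of 205 fibroblast-like nuclei (8.29%) and 61 of 884 glia-like nuclei (6.90%). After thinning to 1000 UMIs the pair of Il6ra and Il6st was left in 3.73% of fibroblast-like and 0.124% of glia-like nuclei, and the pair of Osmr and Il6st in 10.9% of lymphatic nuclei.

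Stat3 was counted in every tested class and was highest in glia-like nuclei (1009 ± 401 CPM, SD, n = 6), above fibroblasts in all 6 libraries. Fibroblasts (513 ± 328 CPM), lymphatic endothelium (475 ± 279 CPM), smooth muscle (387 ± 106 CPM), cycling (202 ± 95.5 CPM) and neuron-like nuclei (122 ± 47.8 CPM) followed with overlapping ranges. Thinned to 1000 UMIs, a Stat3 UMI was seen in 52.9% of glia-like and 8.53% of neuron-like nuclei. Glia-like nuclei, 884 of the 3417 kept, held 398 of the 505 UMIs (78.8%) of Socs3, the feedback inhibitor, against 59.2% of those of Stat3. Socs3 stood at 115 ± 42.8 CPM there, 58.2 ± 46.7 CPM in lymphatic endothelium, 27.6 ± 23.6 CPM in fibroblasts, 10.4 ± 12.2 CPM in cycling, 6.16 ± 9.47 CPM in smooth muscle and 4.10 ± 8.81 CPM in neuron-like nuclei, all neighbours overlapping. The 36 vascular endothelium-like nuclei, too few to test, held 7 Socs3 and 56 Stat3 UMIs among 63345 UMIs in all.

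Across the groups, more members passed the test in glia-like nuclei than in any other class tested, which does not show that glia changed more. Under Stress, Stat3 rose and was the only one of the 5 members tested to pass (adjusted p under 0.05 by edgeR's quasi-likelihood test), where 2.08% of all 6551 genes tested were called. Under Dexa, Osmr and Stat3 rose, 2 of the 5 members that were tested in both comparisons, where 6.08% of all 7710 genes tested were called. Il6 rose as well, but it passed the filter on low counts only through the Dexa library, where it was high, and is not counted with them. No member passed in the direction of a fall. Il6ra and Lif had too few UMIs to be tested in either comparison, and Il6 too few under Stress unless the filter on low counts was dropped. Both comparisons use the same Control libraries.

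Stat3 stood at 531 and 545 CPM in the Control libraries, 1025, 1108 and 1346 CPM in the Stress libraries and 1497 CPM in the Dexa library, from 239 to 1176 UMIs each. Every treated library was above both controls, and the Dexa library was the highest of all 6. The pooled level was 2.26 times that of Control under Stress and 2.78 times under Dexa. By edgeR the log2 fold change was 1.07 ± 0.19 (SE, adjusted p = 0.0107) for Stress and 1.56 ± 0.26 (adjusted p = 8.29e-04) for Dexa. The Stress call was lost without Stress 2 (1.11, adjusted p = 0.0551) and without Stress 3 (0.94, adjusted p = 0.0698). Thinned to 1000 UMIs, the share of glia-like nuclei with a Stat3 UMI was 36.6% in Control, 60.4% in Stress and 72.5% in Dexa, against 54.5%, 82.7% and 93.0% before thinning. The last 72 bases of Stat3 overlap Stat5a on the opposite strand, and 281 bases of Il6ra overlap the gene Gm42809 on the opposite strand. Whether counting used strand is not given in the sources used here. Stat5a had a log2 fold change of 1.25 ± 0.72 (SE, adjusted p = 0.381 by edgeR) in the Dexa comparison.

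Il6 in glia-like nuclei came to 3 and 1 UMIs in the Control libraries (6.40 and 2.28 CPM), 4, 8 and 15 UMIs in Stress (12.9, 16.6 and 17.2 CPM) and 81 UMIs in Dexa (119 CPM). The Dexa library stood apart from the other 5, and the 3 Stress libraries lay above both controls, all from small counts. Under Dexa the edgeR estimate was 4.77 ± 0.55 on the log2 scale (SE), and 4.78 ± 0.57 with no filter on low counts. Il6 entered the first of these fits only through the Dexa library, where it was high, so its passing there is no separate support. The pooled ratio was 27.0 (exact 95% counting interval 10.1 to 101). For Stress the pooled ratio was 3.68 (counting interval 1.28 to 14.5), which rests on 27 against 4 UMIs, and with no filter on low counts the estimate was 1.78 ± 0.76 (SE, adjusted p = 0.428 by edgeR).

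**Figure D2:**
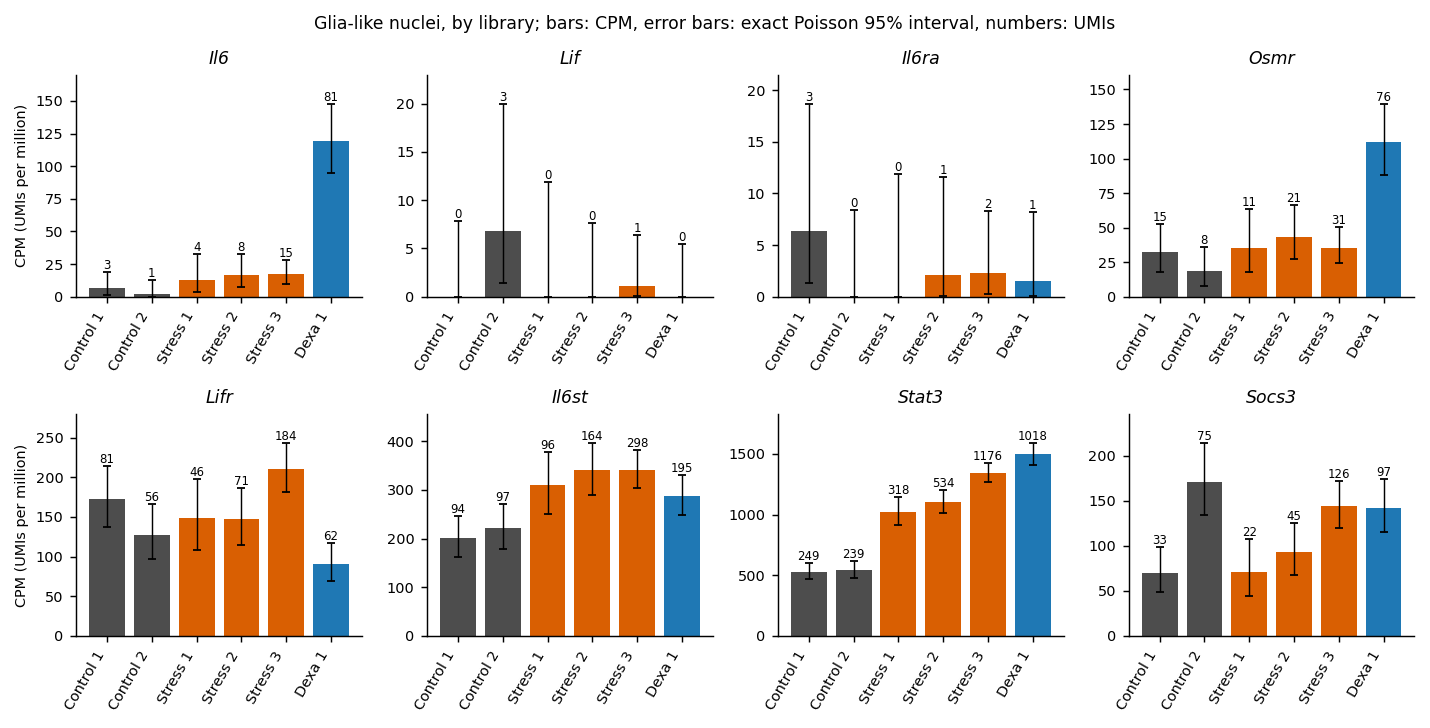
Level of each gene in glia-like nuclei by library, in CPM on a linear axis from 0; bars are single libraries coloured by group, error bars are exact Poisson 95% intervals (counting error only) and the numbers above them are UMIs. Il6 reached 119 CPM and Osmr 112 CPM in the Dexa library, and Stat3 lay between 1025 and 1497 CPM in the 4 treated libraries against 531 and 545 CPM in Control.

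The Dexa Il6 count was spread unevenly over nuclei. The 81 UMIs lay in 19 of 115 glia-like nuclei (16.5%), of which 6 held 1 UMI, 10 held 2 to 5 and 3 held more than 5. A single nucleus held 23 of them (28.4%), and the next held 12. Without that nucleus 58 UMIs remained, and the log2 fold change was 4.30 ± 0.60 (SE, by edgeR). Outside Dexa the most Il6 UMIs in 1 glia-like nucleus was 7, in Stress 3. Thinned to 1000 UMIs the share of nuclei with Il6 was 0.324% in Control, 1.28% in Stress and 6.42% in Dexa.

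**Figure D3:**
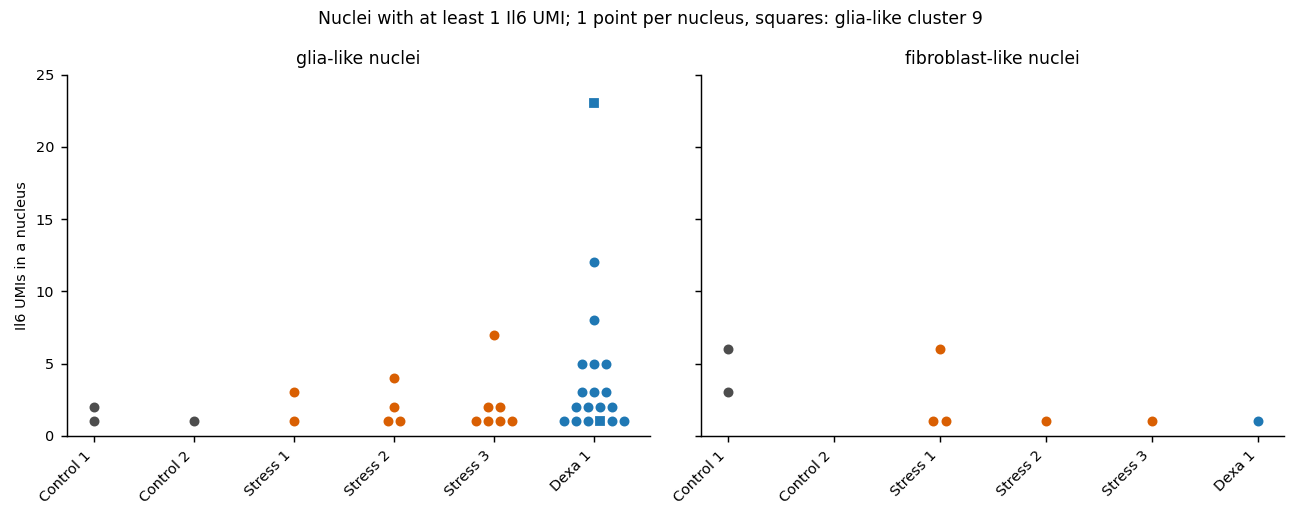
Il6 UMIs in each nucleus that held at least 1, for glia-like nuclei (left) and fibroblast-like nuclei (right), by library, on a linear axis. Each point is 1 nucleus and squares mark glia-like cluster 9; the Dexa library has 19 such glia-like nuclei, with 23 UMIs in the highest, and the other libraries have 1 to 7.

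Summed markers of some other cells rose beside Il6 in the same sums, while those of fibroblasts and epithelium did not. In glia-like nuclei the summed smooth muscle markers lay between 143 and 194 CPM in Control, 199.8 and 351 CPM in Stress and at 691 CPM in Dexa (10 of 10 detected). The summed macrophage markers lay between 10.7 and 16.0 CPM in Control, 22.6 and 26.3 CPM in Stress and at 76.4 CPM in Dexa (7 of 10 detected), of which Cx3cr1 gave 45 of 52 UMIs, while Cd163 was at 0 in every library and C1qa, Csf1r, Adgre1 and Cd68 gave 1 UMI each in Dexa. The lymphatic markers lay between 59.3 and 59.7 CPM in Control, 90.2 and 149 CPM in Stress and at 223 CPM in Dexa (8 of 9 detected), mostly from Pdpn. The fibroblast markers lay between 230 and 283 CPM in Control, 191 and 251 CPM in Stress and at 146 CPM in Dexa. Epithelial markers lay between 561 and 1034 CPM in Control, 372 and 900 CPM in Stress and at 470 CPM in Dexa. The glial markers themselves lay between 3861 and 4774 CPM in Control, 5682 and 6728 CPM in Stress and at 5573 CPM in Dexa. Within the Dexa library, the 19 glia-like nuclei with Il6 and the 96 without had similar glial markers (5213 and 5650 CPM) and median depths (5895 and 5495 UMIs). The nuclei with Il6 had macrophage markers of 125 against 66.1 CPM, smooth muscle markers of 408 against 752 CPM and a median mitochondrial share of 2.58 against 1.93%. Their fibroblast (217 against 130 CPM), lymphatic (333 against 199.95 CPM), epithelial (566 against 450 CPM) and neuronal markers (416 against 277 CPM) were higher too. The part of these cells and of RNA quality in the Il6 result was not tested.

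Osmr, which pairs with Il6st to receive oncostatin M, had 32.0 and 18.3 CPM in Control, 35.5, 43.6 and 35.5 CPM in Stress and 112 CPM in Dexa, from 15, 8, 11, 21, 31 and 76 UMIs. All Stress libraries were above both controls by a small margin, and Dexa was above all of them. It rose under Dexa by 2.22 ± 0.39 on the log2 scale (SE, adjusted p = 0.00155 by edgeR), while the Stress estimate was 0.54 ± 0.40 (adjusted p = 0.611). The Dexa call was lost in nuclei kept by a stricter filter (at least 500 genes and at most 2% mitochondrial UMIs), where the Dexa library held 12 Osmr UMIs (37.5 CPM) and the log2 fold change was 0.32 (adjusted p = 0.913). Under that filter Il6 gave 1 and 0 UMIs in Control, 3, 4 and 8 in Stress and 16 in Dexa (4.51, 0, 51.1, 29.6, 23.3 and 50 CPM), too few to test, and the Dexa library then lay below Stress 1. Stat3 kept a log2 fold change of 1.44 (adjusted p = 0.00730 by edgeR) for Dexa in those nuclei.

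The remaining members of the glial set did not pass the test. Il6st stood at 200.5 and 221 CPM in Control, 309, 340 and 341 CPM in Stress and 287 CPM in Dexa, so every treated library was above both controls. Its log2 fold change was 0.61 ± 0.19 (SE, adjusted p = 0.149 by edgeR) for Stress and 0.53 ± 0.27 (adjusted p = 0.299) for Dexa. Lifr had 173 and 128 CPM in Control, 148, 147 and 211 CPM in Stress and 91.1 CPM in Dexa, the lowest of the 6, with estimates of 0.15 ± 0.24 for Stress (adjusted p = 0.868) and −0.64 ± 0.34 for Dexa (adjusted p = 0.334). Socs3 had 70.4 and 171 CPM in the Control libraries, which enclosed all others: 70.9, 93.4 and 144 CPM in Stress and 143 CPM in Dexa. Its estimates were −0.20 ± 0.35 for Stress (adjusted p = 0.883) and 0.34 ± 0.41 for Dexa (adjusted p = 0.718), so a change in the feedback gene beside that in Stat3 was not detectable against the spread of the controls.

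The glia-like class consisted of 3 clusters whose shares differed between libraries, and the members differed between those clusters. Cluster 11, led by genes including Frzb, Sox10 and Col11a1, held 136 and 100 nuclei in Control, 64, 29 and 37 in Stress and 22 in Dexa. Cluster 12, led by genes including Nr4a2, Nr4a3 and Crem, held 35 and 16 nuclei in Control, 45, 62 and 114 in Stress and 81 in Dexa. Cluster 9, led by genes including Col28a1, Kcna1 and Scn7a, held 12 to 34 nuclei in each library. The 8 genes were left out of the genes used for clustering.

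In cluster 11 Stat3 overlapped between Control and Stress and was lowest in Dexa, at 512 and 422 CPM in Control, 466, 512 and 517 CPM in Stress and 301 CPM in Dexa. Its log2 fold change there was 0.04 for Stress (adjusted p = 0.988 by edgeR) and −0.76 for Dexa (adjusted p = 0.410). In cluster 9 Stat3 was at 404 and 289 CPM in Control, 1826, 1065 and 1621 CPM in Stress and 1399 CPM in Dexa, with no overlap. The Stress change passed there, at 2.03 ± 0.35 (SE, adjusted p = 8.96e-04 by edgeR), where 14 of 1175 genes tested were called. The Dexa estimate was 1.86 ± 0.43 (SE). Cluster 9 held only 32 and 22 nuclei in Control and 12 in Dexa. In cluster 12 Stat3 was already at 645 and 1395 CPM in Control, against 1633, 1353 and 1534 CPM in Stress and 1786 CPM in Dexa, and neither the Stress estimate (0.54 ± 0.30, adjusted p = 0.411) nor the Dexa estimate (0.98 ± 0.33, adjusted p = 0.0812) passed. The Stat3 rise of the class as a whole thus stood beside a larger share of cluster 12 in the treated libraries, and the 3 clusters were not tested against each other.

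Il6 was almost confined to cluster 12 in Control and Stress, which held all 4 Control UMIs and 26 of the 27 Stress UMIs. In the Dexa library 57 of the 81 UMIs lay in 17 nuclei of cluster 12, and 24 in 2 nuclei of cluster 9, of which 23 in 1 nucleus. Cluster 11 held 1 Il6 UMI in 388 nuclei. Within cluster 12 Il6 was at 26.5 and 15.8 CPM in Control, 36.5, 28.3 and 23.1 CPM in Stress and 114 CPM in Dexa. The Dexa log2 fold change was 2.45 ± 0.71 (SE, by edgeR), smaller than in the whole class. Here too Il6 passed the filter on low counts only through the Dexa library, where it was high. Osmr in cluster 12 came to 2 and 0 UMIs in Control, 9, 14 and 27 in Stress and 63 in Dexa, with a Dexa log2 fold change of 3.57 ± 0.81 (adjusted p = 0.00685). Lifr in that cluster was at 203 and 79.2 CPM in Control, 146, 124 and 221 CPM in Stress and 61.8 CPM in Dexa, with an estimate of −1.17 ± 0.52 (adjusted p = 0.233).

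**Figure D4:**
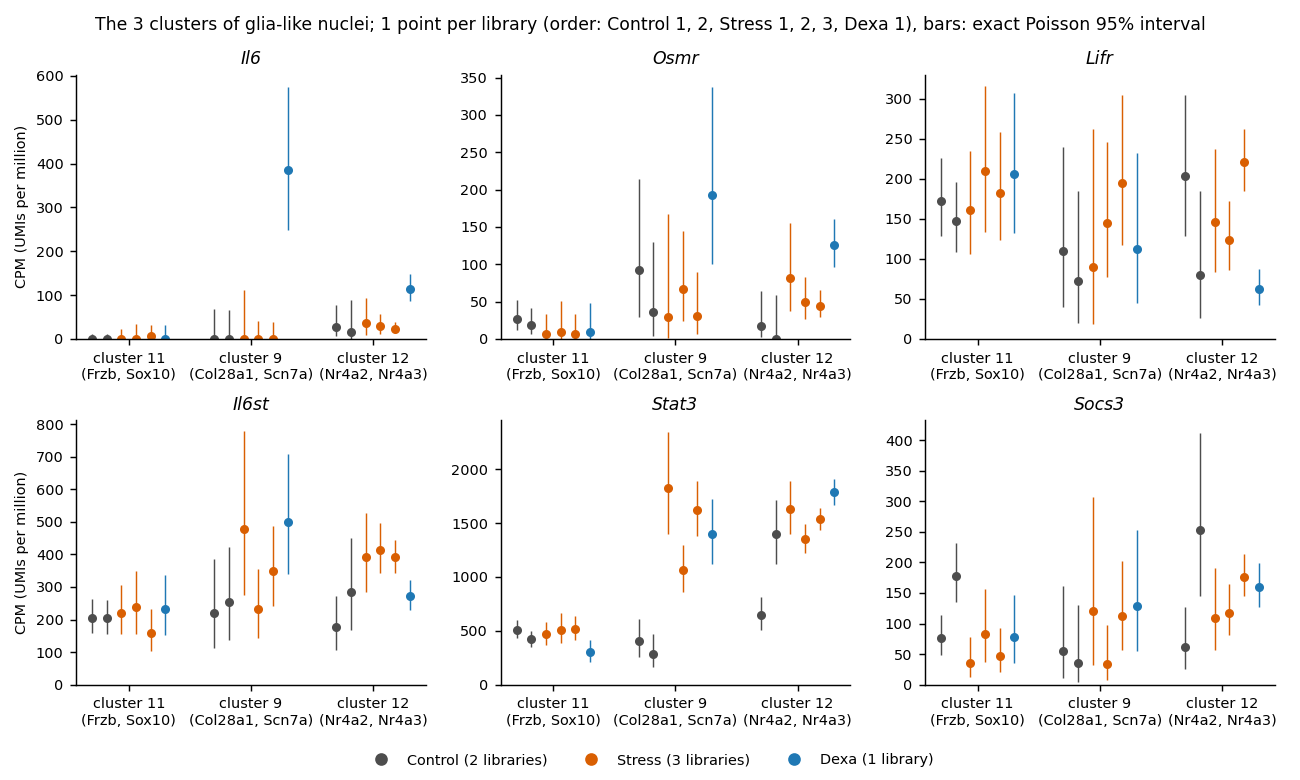
Levels of 6 of the genes in the 3 clusters of glia-like nuclei, in CPM on linear axes from 0; each point is 1 library in the order Control 1 and 2, Stress 1, 2 and 3, Dexa 1, and bars are exact Poisson 95% intervals (counting error only). Stat3 overlaps between Control and Stress in cluster 11 (422 to 517 CPM, with Dexa below at 301 CPM) and is apart from Control in cluster 9 (289 and 404 CPM against 1065 to 1826 CPM), and Il6 in the Dexa library reaches 114 CPM in cluster 12 and 386 CPM in cluster 9, the latter from 24 UMIs in 2 nuclei.

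Fibroblast-like nuclei, the tested class with the highest level of the Il6 receptor chain, also showed Stat3 above Control. It stood at 57.3 and 276 CPM in Control (3 and 15 UMIs), 556, 699 and 488 CPM in Stress (41, 61 and 53 UMIs) and 1001 CPM in Dexa (90 UMIs), with no overlap between treated and control libraries. Under Dexa Stat3 rose by 2.55 ± 0.53 on the log2 scale (SE, adjusted p = 0.00170 by edgeR), 1 of 6 members tested, where 2.28% of all genes tested were called. Without Control 1, which had the fewest Stat3 UMIs and the B and plasma cell markers given above, the Dexa estimate was 1.84 (adjusted p = 0.0809). Under Stress 0 of 4 members tested passed, where 1.55% of all genes were called, and the Stat3 estimate was 1.67 ± 0.49 (adjusted p = 0.105). It passed without Control 2 (3.29, adjusted p = 0.0302).

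The receptor genes of fibroblast-like nuclei lay higher in most treated libraries without passing. Osmr was at 57.3 and 55.2 CPM in Control, 217, 91.6 and 212 CPM in Stress and 211 CPM in Dexa, all treated libraries above both controls, with estimates of 1.504 ± 0.679 for Stress (adjusted p = 0.383 by edgeR) and 1.87 ± 0.75 for Dexa (adjusted p = 0.237). Il6ra, with the levels given above, had estimates of 0.64 ± 0.47 (adjusted p = 0.663) and 1.02 ± 0.57 (adjusted p = 0.522). Il6st was at 191 and 166 CPM in Control, 190, 229 and 286 CPM in Stress and 211 CPM in Dexa, with estimates of 0.32 ± 0.41 and 0.24 ± 0.58 (adjusted p = 0.826 and 0.919). Lifr went the other way in value, at 172 and 73.6 CPM in Control, 54.2, 34.4 and 73.7 CPM in Stress and 11.1 CPM in Dexa, the last from 1 UMI (ratio 0.0913, counting interval 0.00215 to 0.608, adjusted p = 0.485 by edgeR). Il6 came to 1 UMI in the Dexa fibroblasts against 9 in Control, all 9 from 1 library (ratio 0.132, counting interval 0.00301 to 0.952, adjusted p = 0.714 by edgeR). Socs3 was at 0 UMIs in both Control libraries, 2, 5 and 4 UMIs in Stress and 4 in Dexa. The lower limits of the exact 95% counting intervals of the ratio to Control were 0.993 for Stress and 0.783 for Dexa, so a rise was not detectable at this depth.

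Lymphatic endothelium-like nuclei gave Stat3 at 149 and 135 CPM in Control (3 UMIs each), 440, 656 and 757 CPM in Stress and 710 CPM in Dexa. The groups did not overlap, but the estimates of 2.02 ± 0.53 for Stress (SE, adjusted p = 0.232 by edgeR) and 2.32 ± 0.61 for Dexa (adjusted p = 0.0972) did not pass. In this class 0 of 2 members passed under Stress, where 0.0% of the 526 genes tested were called (48 with an unadjusted p under 0.05), and 0 of 3 under Dexa, where 0.423% were called. Osmr, at its highest in this class, had estimates of 0.43 ± 0.46 (adjusted p = 0.760) and 0.51 ± 0.57 (adjusted p = 0.881). Il6st was at 547 and 360 CPM in Control, 220, 199 and 203 CPM in Stress and 401 CPM in Dexa, so all Stress libraries were below both controls, from 6 to 15 UMIs each. It was not tested for Stress, where the pooled ratio was 0.456 (counting interval 0.2496 to 0.854).

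Smooth muscle-like nuclei gave 0 of 2 members past the test under Stress and 0 of 4 under Dexa, where 0.29% and 0.161% of all genes were called. Stat3 was at 288 and 304 CPM in Control, 516, 511 and 303.5 CPM in Stress and 399 CPM in Dexa, with estimates of 0.49 ± 0.34 (SE, adjusted p = 0.635 by edgeR) and 0.36 ± 0.43 (adjusted p = 0.877). Lifr was at 0 UMIs in the Dexa library, against 8 UMIs in Control and 29 in Stress, and had a ratio to Control of at most 0.538, the upper limit of the exact 95% counting interval (adjusted p = 0.344 by edgeR). Cycling nuclei gave 0 of 2 members past the test in either comparison, where 0.0283% and 0.136% of genes were called. Their Stat3 was at 129 and 116 CPM in Control, 220.0, 334 and 292 CPM in Stress and 118 CPM in Dexa, with estimates of 1.14 ± 0.32 (adjusted p = 0.190) and −0.09 ± 0.51 (adjusted p = 0.974).

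Neuron-like nuclei had low levels of the whole set and no member past the test. Under Stress 0 of 3 members passed, where 0.0% of 7470 genes were called by edgeR (761 with an unadjusted p under 0.05, and 16 called by DESeq2). Under Dexa 0 of 3 passed, where 0.273% of 8419 genes were called. Stat3 was at 83.3 and 88.6 CPM in Control, 97.8, 106 and 149 CPM in Stress and 207 CPM in Dexa, every treated library above both controls, with estimates of 0.46 ± 0.23 (SE, adjusted p = 0.535) and 1.21 ± 0.30 (adjusted p = 0.139 by edgeR). The Dexa level came from 94 UMIs in 24 nuclei, of which 35 in 1 nucleus. Il6st was at 53.8 and 32.5 CPM in Control, 86.3, 62.8 and 65.4 CPM in Stress and 46.3 CPM in Dexa, with estimates of 0.52 ± 0.29 and −0.02 ± 0.42 (adjusted p = 0.574 and 0.996). Lifr was at 13.9 and 14.8 CPM in Control, 17.3, 24.4 and 18.0 CPM in Stress and 24.2 CPM in Dexa (adjusted p = 0.763 and 0.779). Il6 gave 3 UMIs in all, 2 in Stress 3 and 1 in Dexa. A further 121 nuclei with Penk and Tac1 among their leading genes, 46 of them in the Dexa library, stayed unnamed and are outside these counts.

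**Figure D5:**
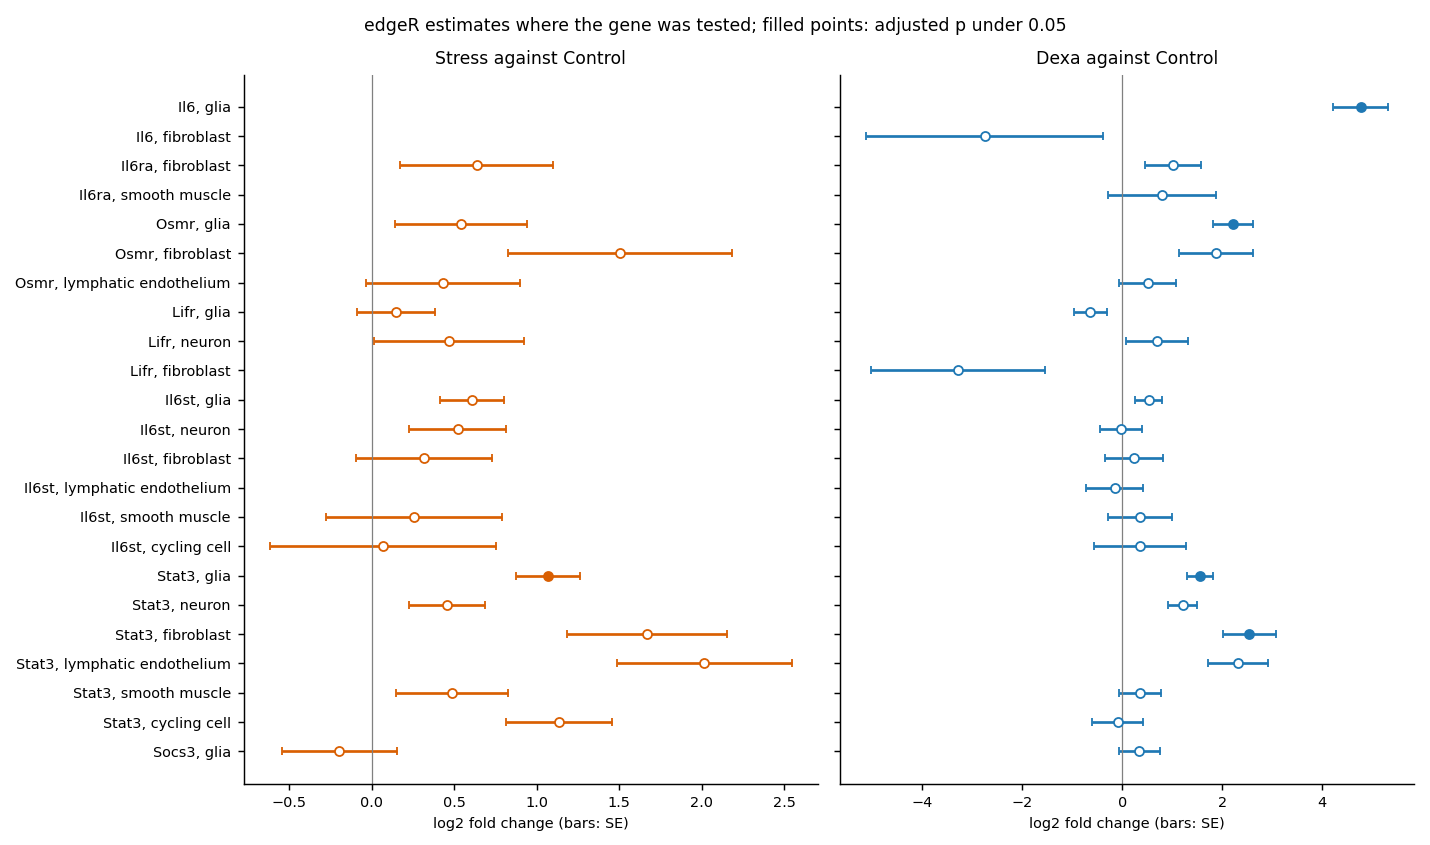
Log2 fold change (x axis, linear) of each gene against Control in each class where it was tested, for Stress (left) and Dexa (right, on a wider axis); points are edgeR estimates, bars are standard errors, and filled points have an adjusted p under 0.05. Filled points are Stat3 in glia-like nuclei under Stress and Il6, Osmr and Stat3 in glia-like and Stat3 in fibroblast-like nuclei under Dexa. Il6 in glia-like nuclei passed the filter on low counts only through the Dexa library, where it was high. Lifr in smooth muscle, at 0 UMIs in Dexa, is not drawn.

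Whether a treatment acted differently on glia and neurons was tested in 1 model over both classes. For Stress 0 of 5 members tested differed, where 0.0849% of 8243 genes were called, and the Stat3 change in glia exceeded that in neurons by 0.64 ± 0.32 on the log2 scale (SE, adjusted p = 0.612 by edgeR). For Dexa 1 of 6 members differed, where 1.26% of 9477 genes were called. That member was Socs3 (adjusted p = 0.0312 by edgeR), whose change was lower in glia than in neurons. It rests on few neuronal counts: 0 and 0 UMIs in Control, 0, 1 and 2 in Stress and 10 in Dexa, of which 8 in 1 nucleus. The exact 95% counting interval of the neuronal ratio of Dexa to Control had a lower limit of 4.52, while glial Socs3 had a pooled ratio of 1.20 (counting interval 0.901 to 1.59). The call was lost without Control 1 (adjusted p = 0.124) and without Control 2 (adjusted p = 0.268). Stat3 (0.31 ± 0.42, adjusted p = 0.870) and Lifr (−1.41 ± 0.73, adjusted p = 0.479) did not pass, so the glial call for Stat3 is not shown to differ from the neuronal change.

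Another 84 genes of the pathway, in 6 lists, give the surroundings of the 8. The other ligands of the family, among them Il11, Osm and Cntf, had too few counts to be tested in any of the 6 classes. In glia under Stress 44 of the 84 were tested, 3 rose and 0 fell, where 2.08% of all genes were called, with a median log2 fold change of 0.09 against −0.01 for all genes. Among them were Stat2, which carries interferon signals, and Arid5a, which binds and stabilises Il6 mRNA. Arid5a rose by 1.36 ± 0.24 on the log2 scale (SE, adjusted p = 0.00871 by edgeR) and Stat2 by 1.11 ± 0.25 (adjusted p = 0.0370). The brakes on the pathway gave 0 of 9 and the genes known to be induced through Stat3 0 of 14 past the test.

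In glia under Dexa 51 of the 84 were tested, 11 rose and 1 fell, where 6.08% of all genes were called, with a median of 0.59 against −0.05 for all genes. Regulators of Il6 transcription and mRNA made up most of these, with 6 of 13 higher and 1 lower: Nfkb1 (2.45 ± 0.31, SE), Relb (1.81 ± 0.34), Rel (1.54 ± 0.31) and Rela (1.56 ± 0.37) are NF-kB subunits, Arid5a rose by 1.72 ± 0.30, and Cebpb, a factor that binds the Il6 promoter, by 1.74 ± 0.47. Nfkb1 stood at 352 and 365 CPM in Control, 438, 813 and 474 CPM in Stress and 1838 CPM in Dexa. The gene that fell was Nr3c1, the glucocorticoid receptor, at 78.9 and 70.7 CPM in Control, 83.8, 80.9 and 81.3 CPM in Stress and 24.99 CPM in Dexa (−1.49 ± 0.40, adjusted p = 0.0334 by edgeR); Cebpb and Nr3c1 lie outside the naming rule and were named after their values were seen. Among kinases and other STATs 2 of 7 rose, among them Jak1 (1.91 ± 0.27), which transmits the signal of gp130. Among brakes 1 of 11 rose, Ptpn2 (1.88 ± 0.27), a phosphatase that acts on JAK kinases and STATs. Of genes known to be induced through Stat3, 3 of 17 rose, among them Bcl3 (2.01 ± 0.50) and Tnfaip3 (2.18 ± 0.45), both of which are also known as NF-kB targets. The adjusted p-values by edgeR for the risers lay between 6.23e-05 for Nfkb1 and 0.0332 for Cebpb.

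In fibroblast-like nuclei 2 of 17 pathway genes tested rose under Stress and 4 of 28 under Dexa, with 0 lower in both, where 1.55% and 2.28% of all genes were called. Under Stress Icam1, an adhesion molecule, came to 0 and 1 UMIs in Control against 16, 37 and 23 UMIs in Stress (adjusted p = 0.0108 by edgeR), and Junb, an AP-1 subunit, rose by 1.69 ± 0.38 on the log2 scale (SE, adjusted p = 0.0303). Under Dexa Zfp36, which degrades cytokine mRNAs (4.04 ± 0.66), Tnfaip3 (2.87 ± 0.65), Nfkbiz, an NF-kB cofactor (2.39 ± 0.54), and Junb (2.17 ± 0.47) rose. The median of the 28 was 1.47 against −0.08 for all genes. Neuron-like nuclei gave 0 of 34 under Stress, where edgeR called 0.0% of all genes. Of the 39 tested under Dexa, Nfkbia, an NF-kB inhibitor, had a log2 fold change of 3.35 ± 0.62 (SE, by edgeR). It came to 4 and 1 UMIs in Control, 2, 20 and 23 in Stress and 27 in Dexa. Nfkbia passed the filter on low counts only through the Dexa library, where it was high.

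Genes whose level ran most like that of each member were sought over 37 sums of a class in a library, among 10693 genes. These correlations describe shared libraries, depths and classes and carry no test. Il6 ran most like Adamts4 (Pearson r = 0.76), C4b and Ednrb (both 0.67), Osmr like Slc10a6 (0.92), Ltbp4 (0.91) and Ackr3 (0.88), and Il6st like Nox4 (0.87), Maml2 and Fam20a (both 0.85). Il6ra ran most like Tnxb (0.90), Efemp1 and Fmo2 (both 0.89), and Lifr like Sema3e, Col12a1 (both 0.83) and Pdzd2 (0.80). Stat3 ran most like Zfp36, Zcchc24 (both 0.81) and Socs3 (0.79), while Socs3 ran most like Cphx3 (0.85), Sh3tc2 (0.83) and Npas3 (0.82).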

How the data were processed

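Nuclei of mouse colon were sorted, and their RNA was counted in 6 droplet libraries. The deposited matrices hold UMI counts per gene and barcode, made by the authors with Cell Ranger 4.0.0 (Control, Stress) and 5.0.1 (Dexa), per the file headers; the submitters' processing notes name Cell Ranger 5 and mm10. The deposited gene and barcode lists are other files of names only. Barcodes with at least 300 genes and at most 5% mitochondrial UMIs were kept (3461 of 11040), and scrublet, run per library, removed 44 (1.27%). Library totals lay between 6057994 and 14838057 UMIs, and the glia-like sums between 310277 and 873599.

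Nuclei were clustered with scanpy 1.11.5 (2000 variable genes without the members, pathway, mitochondrial, ribosomal and sex-linked genes, 30 components, 15 neighbours, Leiden resolution 1.0) into 23 clusters. Of these 18 were named from 16 marker lists, with score thresholds of 0.5 for neurons and glia and 1.0 for others, set after seeing the clusters. The lists and the members were chosen with earlier results of these data known. Counts were summed per class and library and tested with edgeR 4.0.16 (TMM, filterByExpr, quasi-likelihood F-test, Benjamini-Hochberg over all genes tested, threshold 0.05) in the 6 classes with at least 10 nuclei in every library. Only Control and Stress libraries entered the Stress fits, and all 6 the Dexa fits. The difference between glia and neurons was an interaction with library as a block. DESeq2 1.42.0, other scalings, filters, clusterings and left-out libraries were alternatives. The fits and their code were tested on simulated data. Pooled ratios carry exact counting intervals. Named genes are all 8 members, up to 10 pathway genes past the threshold per comparison by smallest p, and the 3 genes most like each member with at least 100 UMIs, by Pearson correlation of log2(CPM + 10) over sums of at least 50000 UMIs. Positions come from an annotation of GRCm38, in which 30934 of 31053 gene identifiers were found, and promoters from RefSeq's GRCm38.p6. The values of 1 pathway gene are not reported here.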

Additional observations from a re-analysis of the deposited data

Results flagged for a closer look

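The Dexa effect differed between glia-like and neuron-like nuclei for 4 of the members and pathway genes by the interaction test in edgeR. In that test 1.26% of all 9477 genes were called, and these 4 are listed because they passed. Socs3 (adjusted p = 0.0312) is described above. Ptpn2, a phosphatase of JAK kinases and STATs, had 154 and 167 CPM in Control, 232, 280 and 302 CPM in Stress and 556 CPM in Dexa in glia, against 57.3 and 56.1 CPM, 57.5, 61.8 and 64.6 CPM and 46.3 CPM in neurons (difference of the log2 changes 2.20 ± 0.50, SE, adjusted p = 0.0143). Its glial level was higher in each treated library than in both controls, while the neuronal Dexa level was the lowest of the 6. Jak1, a kinase bound to gp130, had 126 and 116 CPM in Control and 428 CPM in Dexa in glia, against 229 and 180 CPM and 254 CPM in neurons (1.61 ± 0.41, adjusted p = 0.0295). Nfkbia, an inhibitor of NF-kB, went the other way (−2.69 ± 0.71, adjusted p = 0.0393): its glial level was 93.9 and 183 CPM in Control and 194 CPM in Dexa, while neurons had 4 and 1 UMIs in Control, 2, 20 and 23 in Stress and 27 in Dexa.

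Barcodes above 5% mitochondrial UMIs entered only the alternative fits without the mitochondrial filter. They held more of several members in treated than in Control libraries. The Control libraries had 1358 and 2585 such barcodes, the Stress libraries 1138, 1455 and 568 and the Dexa library 474, and CPM here is relative to all UMIs of these barcodes. Il6 stood at 1.40 CPM in both Control libraries, at 10.1, 2.72 and 3.97 CPM in Stress and at 19.9 CPM in Dexa (133 UMIs). Stat3 was at 169 and 129 CPM in Control, 357, 212 and 358 CPM in Stress and 381 CPM in Dexa. The Dexa library, but not all 3 Stress libraries, was above both controls for Osmr (22.5 CPM, against 3.39 and 1.40 CPM in Control), Il6st (73.6 against 58.9 and 33.9 CPM), Il6ra (11.2 against 3.20 and 8.91 CPM) and Socs3 (38.7 against 13.8 and 21.7 CPM). Lifr did not follow, at 33.5 and 17.7 CPM in Control, 29.2, 13.7 and 34.8 CPM in Stress and 28.0 CPM in Dexa. Neither did Lif, at 0 and 1.10 CPM in Control and 0.600 CPM in Dexa. These barcodes mix all cell classes, and the levels carry no test. A clustering without the mitochondrial filter, which also held the kept nuclei, split Il6 by class. Its Dexa level was 108 CPM in glia-like nuclei (7.55 and 9.05 CPM in Control) and 25.1 CPM in smooth muscle-like nuclei (0 and 0). In neuron-like nuclei it was 13.2 CPM (0 and 2.61), from 24 UMIs, and in unnamed nuclei 5.37 CPM (0 and 0.101). In fibroblast-like nuclei it was 24.2 CPM, between the Control values (123 and 0).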

How the results depend on the processing

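Counts of genes called moved by over 1.5 times under several alternatives. In glia under Stress (136 by edgeR) DESeq2 gave 90, no filter on low counts 274, thinning to equal totals 67, the stricter filter of nuclei 32, no mitochondrial filter 291, and clusters 9, 11 and 12 alone 14, 9 and 64; leaving out a library gave 35 (without Stress 3) to 179, with 49 without Stress 2 and 86 without Control 2. In glia under Dexa (469) the values were 208 by DESeq2, 254 thinned, 233 with the stricter filter, 717 without the mitochondrial filter, 34, 63 and 261 in clusters 9, 11 and 12, and 310 (without Control 2) to 486 with a library left out. In neurons under Stress (0) library totals gave 14, DESeq2 16, no low-count filter 119, cluster 10 alone 4 and a left-out library 0 to 3. In neurons under Dexa (23) DESeq2 gave 13, no low-count filter 152, the stricter filter 6 and resolution 2.0 gave 7; thinning, keeping doublets, resolution 0.5 and adding cluster 3 (chosen after seeing the data) each gave 0, with 167, 963, 955 and 955 genes at an unadjusted p under 0.05, and left-out libraries gave 0 to 48. In cycling nuclei under Stress library totals gave 0 (372 at an unadjusted p under 0.05). With a library left out the counts ran from 0 to 56 (Stress) and 2 to 26 (Dexa) in cycling, 7 to 30 and 37 to 84 in fibroblast-like, 0 to 1 and 0 to 6 in lymphatic and 0 to 36 and 2 to 54 in smooth muscle-like nuclei. For the difference between glia and neurons, leaving out libraries (chosen after seeing the data) gave 7 to 51 for Stress and 47 to 215 for Dexa. The cause was not tested. The same replicate numbers in Control and Stress share only a number: deviations of same-numbered libraries correlated at −0.15 and −0.02 in glia and 0.04 and 0.11 in neurons. With replicate number as a block 158 genes were called in glia and 76 in neurons, and Stat3 in glia was at 0.94 (adjusted p = 0.0592 by edgeR).

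Stat3 in glia stayed past the threshold in 15 of 20 alternatives for Stress and 17 of 19 for Dexa, and Osmr in 16 of 18 for Dexa. Il6 could be tested in 17 alternatives for Dexa, with estimates from 2.45 to 7.60 on the log2 scale. In the main fit it passed the filter on low counts only through the Dexa library, where it was high, so its passes are not tallied. With the stricter filter of nuclei it had too few UMIs to be tested. All Dexa alternatives use the same single Dexa library, so the Dexa tallies are not separate support. In glia the fits at resolutions 0.5 and 2.0 repeated the main fit for both treatments, so they add nothing to any tally. Osmr in glia under Stress passed without the mitochondrial filter (1.45, adjusted p = 0.0371 by edgeR), and Stat3 in neurons under Dexa without the low-count filter (1.18, adjusted p = 0.0291). Of the member estimates, 30 changed sign and none of these passed. With a library left out, those for Stress ran from −0.58 (without Control 2) to 1.65 for Il6st in cycling nuclei, from −0.075 (without Stress 3; −0.065 without Control 2) to 0.40 for Lifr in glia and from −0.70 to 0.56 (without Control 2) for Socs3 in glia. Those for Dexa ran from −0.32 (without Control 2) to 0.35 for Il6st and from −0.17 to 0.019 (without Control 1) for Stat3 in cycling nuclei, and, each highest or lowest without Control 1, from −0.16 to 1.09 for Socs3 in glia, from −0.32 to 0.15 for Il6st in lymphatic nuclei and from −0.26 to 0.44 for Il6st in neurons. For the difference between glia and neurons they ran from −1.23 to 2.15 for Osmr and from −0.49 to 0.39 for Il6st under Stress (both lowest without Control 1; Il6st −0.036 without Stress 3), from −0.76 to 0.14 (without Stress 2) for Lifr under Stress and from −0.67 (without Control 1) to 2.61 for Osmr under Dexa. In glia under Stress the other sign changes were Il6st in cluster 11 (−0.053), Lifr with the stricter filter (−0.11) and with the replicate block (−0.047), and Socs3 with the stricter filter (0.058) and in cluster 12 (0.0035). In glia under Dexa they were Lifr in clusters 9 (0.15) and 11 (0.24) and Stat3 (−0.76) and Socs3 (−0.86) in cluster 11. In neurons under Dexa they were Il6st with library totals (0.052), by DESeq2 (0.012), without the mitochondrial filter (0.53), with doublets kept (0.12), at resolutions 0.5 (0.090) and 2.0 (0.16) and with cluster 3 (0.090). Library totals moved the median of all genes by 0.14, 0.25 and 0.10 against TMM under Stress in fibroblast-like, lymphatic and smooth muscle-like nuclei.

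Depth limits the shares of glia-like nuclei with a UMI, which fell on thinning to 1000 UMIs from 3.96 to 1.61% for Il6, 0.226 to 0% for Lif, 10.7 to 3.83% for Osmr, 50 to 21.6% for Il6st, 32.8 to 12.1% for Lifr, 73.2 to 52.9% for Stat3 and 27.1 to 10.5% for Socs3.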
